A study of Mus musculus with 4 samples.

Results

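Toll-like receptors (TLRs) are membrane receptors through which macrophages sense molecules of microbes, and Cd14 encodes a co-receptor that hands lipopolysaccharide (LPS), the endotoxin of Gram-negative bacteria, to the receptor encoded by Tlr4. Of 237102 significant chromatin interactions in bone marrow-derived macrophages (BMDMs), 104 had a transcription start site (TSS) of Tlr1, Tlr2, Tlr3, Tlr4, Tlr5, Tlr6, Tlr9, Tlr11, Tlr12 or Cd14 in at least 1 of their paired 5-kb bins. An interaction was given to a gene where either bin held a TSS of a protein-coding transcript of that gene in the basic set of GENCODE M21. The X-linked receptor genes Tlr7, Tlr8 and Tlr13 were not analysed here, since the list holds the 19 autosomes.

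TLRs 1, 2, 4, 5 and 6 sit mainly at the cell surface, where TLR2 pairs with TLR1 or TLR6 to bind bacterial lipoproteins, TLR4 responds to LPS and TLR5 to flagellin. TLR3 and TLR9 act in endosomes on double-stranded RNA and unmethylated CpG DNA, and in mice TLR11 and TLR12 recognise profilin of Toxoplasma gondii. Ligand binding recruits adaptors such as MyD88 or TRIF, and the signal runs through kinases and ubiquitin ligases to NF-kB and interferon regulatory factors.

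H3K4me3 HiChIP, an assay that ligates DNA ends lying close together in the nucleus and enriches the ligated fragments for a histone mark of active promoters, was run on C57BL/6J BMDMs grown with M-CSF from bone marrow. The 4 samples were 2 of BMDMs treated for 24 h with 20 ng/mL of the type 2 cytokine interleukin-4 (IL-4) and 2 of untreated (basal) BMDMs; the labels name no mutation and no TLR ligand in any sample. The study asked how natural genetic variation between inbred mouse strains affects the response of macrophages to IL-4. It used HiChIP to connect enhancers (distal regulatory elements) that respond to IL-4 with their target promoters. The list of interactions used here was called after the reads of the 4 samples had been merged. IL-4-treated and basal BMDMs could therefore not be compared here at these genes, and no value has a replicate error. The sequencing depth behind each library was not given. The study itself tested counts per sample over its significant interactions. At its thresholds it called none different between IL-4 and control, and for that reason it went on with the combined set.

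Each interaction has 1 observed count of paired reads and 1 expected count from the caller's model of distance and local bias, and the ratio of both is given below with an exact Poisson 95% interval that covers counting error in the observed count only. All listed ratios were at least 2, all false discovery rates (FDR) were at most 0.01, and distances, taken between bin starts, ran from 10 to 1000 kb. A gene without a listed interaction therefore had no called contact past these limits. Only bin pairs touching a bin with an H3K4me3 peak could be called, so this does not show that the gene had no contact. The cell type was checked on marker genes: all 8 macrophage markers had at least 1 interaction, with a median of 13.5, led by Mertk with 42 and the PU.1 gene Spi1 with 36, while Itgam had 1, at a promoter bin it shares with Gm49368. For comparison, 63.2% of all genes had at least 1 and their median was 2. Of the T cell markers 1 of 5 had any (Cd4, with 4), of the B cell markers 3 of 4 (median 1.5), of the neutrophil markers 2 of 4 (at most 2) and of the stromal markers 3 of 4, led by Pecam1 with 26, whose promoter bin also holds Milr1; no T cell receptor complex gene (Cd3d, Cd3e, Cd3g) had an interaction. The part of other cells in the contacts of the TLR genes was not tested.

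Contacts were spread unevenly over the receptor genes. Tlr4 had 38 interactions, Tlr1 18, Tlr5 15, Tlr6 13, Cd14 11, Tlr9 4, Tlr2 2, Tlr12 2, Tlr3 1 and Tlr11 none. At least 1 interaction was found at 9 of the 10 genes, against 63.2% of all 20720 protein-coding genes on the autosomes, and at least 10 at 5 of the 10, against 27.3%. The median over the 10 genes was 7.5, against 2 over all genes (quartiles 0 and 11). This difference depended on the threshold: both medians were 1 at an FDR under 1e-06, and with 1 bin pair kept per cluster the median was 0.5 over the 10 genes and 1 over all genes. Tlr2 and its partners did not have like numbers in the list as reported, with 2 interactions at Tlr2, 18 at Tlr1 and 13 at Tlr6. The gap between Tlr2 and Tlr6 depended on the threshold. At an FDR under 1e-06 both had 1 interaction and Tlr1 had 8, and the same numbers were found with 1 bin pair kept per cluster. No other protein-coding gene had a TSS in the promoter bins of these 10 genes, so none of their counts is shared through the bin with another protein-coding promoter. Starts of other gene types in these bins were not checked.

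**Figure D1:**
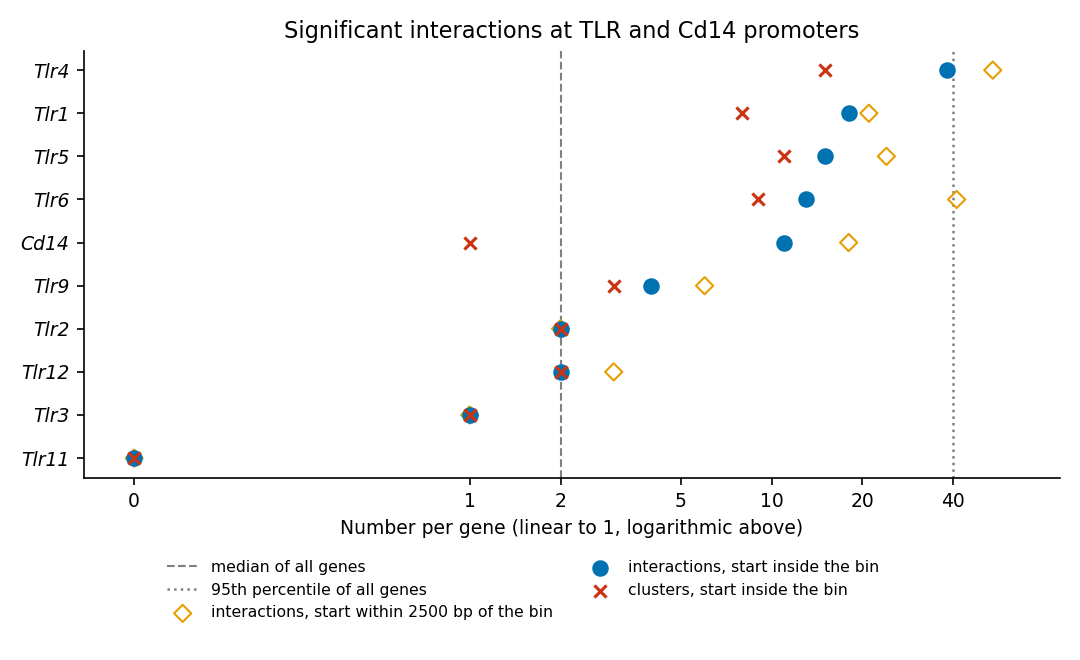
Number of significant interactions (blue circles) and of clusters of neighbouring bin pairs (red crosses) per gene, and of interactions when start sites up to 2500 bp outside the bin also counted (open diamonds), on an axis that is linear to 1 and logarithmic above; vertical lines mark the median (2) and the 95th percentile (40) of all genes. Tlr4 is farthest right with 38 interactions in 15 clusters, the 11 interactions of Cd14 belong to 1 larger cluster, and Tlr6 reaches 41 with the wider definition.

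The 104 interactions fell in 52 clusters of neighbouring bin pairs, some of which also hold pairs of other bins, and summed to 5705 observed counts. Their median ratio was 3.24 and their median count 22, against 2.99 and 34 over all 148313 interactions with a protein-coding TSS. The median distance was 235 kb (quartiles 55 and 546 kb), against 190 kb (85 and 385 kb). A ratio of at least 4 was reached by 33 (31.7%), against 23.4% of all promoter interactions, and by 19 of 66 (28.8%) without Tlr4. These shares were not matched for distance. At their own distance, 62 of the 104 were above the median ratio of promoter interactions. Of the partner bins, 64 (61.5%, Wilson 95% interval 51.9 to 70.3%) were intergenic, 20 (19.2%) lay on an exon, 12 (11.5%) in an intron and 8 (7.69%, 3.95 to 14.4%) held a TSS of another protein-coding gene. Over all promoter interactions the shares were 32.4% intergenic, 33.0% exon, 21.0% intron and 13.7% promoter. Tlr4 set much of this, and without it 33 of 66 partner bins (50.0%, 38.3 to 61.7%) were intergenic. Neighbouring bin pairs are not independent, so these intervals are too narrow and no test was made.

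Sequences of the promoters whose contacts are described most closely are given here, as RefSeq windows on GRCm38.p6 from 250 bases before to 50 after the start, on the gene's strand; of the 10 genes 8 had an entry, and Tlr4 and Cd14 did not. Capitals mark matches, on either strand, to GAGGAAGT (PU.1), TGANTCA (AP-1), TTGCNNAA (C/EBP), GCGTGGGCG (EGR) or the 6-base TATA box, or to 10-base consensus sequences of NF-kB, STAT and IRF, whose middle 4, 4 and 2 bases were free. Tlr1 (chr5:64933509-64933808, minus strand) is shown beside both RefSeq starts of its neighbour Tlr6 (chr5:64959999-64960298 and chr5:64959117-64959416, minus strand), because these lie in different 5-kb bins with different contacts. Tlr2 (chr3:83841559-83841858, minus strand) and Tlr11 (chr14:50357664-50357963, plus strand) are shown because their promoters had few contacts or none.
Tlr1: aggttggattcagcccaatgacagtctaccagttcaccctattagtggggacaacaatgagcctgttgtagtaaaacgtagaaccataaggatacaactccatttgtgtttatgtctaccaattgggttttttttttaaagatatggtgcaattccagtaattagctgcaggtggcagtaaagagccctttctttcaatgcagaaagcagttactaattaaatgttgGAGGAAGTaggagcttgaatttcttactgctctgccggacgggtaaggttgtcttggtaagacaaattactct
Tlr6 upstream start: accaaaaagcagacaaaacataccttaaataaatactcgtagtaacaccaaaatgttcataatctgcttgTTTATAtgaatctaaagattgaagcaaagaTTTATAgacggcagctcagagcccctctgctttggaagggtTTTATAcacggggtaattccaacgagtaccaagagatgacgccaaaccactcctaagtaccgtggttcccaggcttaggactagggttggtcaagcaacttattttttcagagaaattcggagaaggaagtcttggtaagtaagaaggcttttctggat
Tlr6 downstream start: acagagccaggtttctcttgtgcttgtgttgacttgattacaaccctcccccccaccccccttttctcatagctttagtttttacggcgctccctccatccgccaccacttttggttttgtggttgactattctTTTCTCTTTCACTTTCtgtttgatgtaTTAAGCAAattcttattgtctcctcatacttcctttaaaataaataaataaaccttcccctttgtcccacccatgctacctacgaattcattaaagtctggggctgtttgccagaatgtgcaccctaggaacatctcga
Tlr2: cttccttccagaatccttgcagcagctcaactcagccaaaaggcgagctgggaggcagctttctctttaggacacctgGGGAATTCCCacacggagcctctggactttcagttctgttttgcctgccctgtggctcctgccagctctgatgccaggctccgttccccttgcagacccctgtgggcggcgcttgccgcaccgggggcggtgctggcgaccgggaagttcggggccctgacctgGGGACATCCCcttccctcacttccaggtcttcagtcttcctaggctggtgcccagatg
Tlr11: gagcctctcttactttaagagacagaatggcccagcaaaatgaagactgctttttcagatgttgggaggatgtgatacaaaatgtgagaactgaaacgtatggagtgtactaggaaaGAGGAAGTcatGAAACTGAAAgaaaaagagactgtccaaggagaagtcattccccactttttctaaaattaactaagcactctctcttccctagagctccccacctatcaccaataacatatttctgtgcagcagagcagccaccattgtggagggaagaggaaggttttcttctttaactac

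The Tlr1 window held 1 PU.1 match, on the gene's strand at position -23, counted back from the base before the start. PU.1 is the lineage factor of macrophages, and 3.2% of 32851 RefSeq promoter windows held these letters. In the Tlr6 windows the upstream start had 3 matches to the TATA box (TATAAA) on the opposite strand and no other, and the downstream start had a C/EBP match at -89 and IRF matches at -116 and -110, which overlap each other. C/EBP letters were found in 10.8%, IRF letters in 3.44% and TATA box letters in 13.6% of all windows. The Tlr2 window held NF-kB matches at -172 and -8, both of which read as a match on either strand (20.7% of all windows held a match). Tlr11, which had no listed contact, held a PU.1 match at -133 and an IRF match at -122. Of the windows not printed, that of a second Tlr1 start in the same promoter bin held none of these motifs, that of Tlr3 held 3 NF-kB matches and a C/EBP match, Tlr5 an NF-kB match at -20, Tlr9 an AP-1 match and a PU.1 match, and Tlr12 none. A match says only that the letters are there, and the factors were not measured.

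Tlr4, which encodes the LPS receptor, had the most interactions of the 10 genes, more than 94.3% of all genes had. The gene lies at chr4:66827584-66930284 on the plus strand, its promoter bin is chr4:66825001-66830000, and the 38 interactions summed to 1528 observed counts (exact Poisson 95% interval 1452 to 1607). It stands in a gene-poor region: the nearest TSS of another protein-coding gene was that of Astn2, 423 kb upstream, the next downstream was that of Brinp1 at 2127 kb, and 1 such gene lay within 1 Mb. The contacts were lopsided, with 32 downstream of the TSS and 6 upstream. Partner bins were intergenic in 31, intronic in 6 and exonic in 1, the last 7 all inside Tlr4 itself, and none held a TSS.

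Near bins carried most of the counts of Tlr4 and far bins its highest ratios. Ratios rose with distance over all promoter interactions too, with medians of 2.42 at 20 kb, 3.9 at 620 kb and 4.93 at 1000 kb. Of the 38 interactions of Tlr4, 22 were above the median ratio at their distance. Within 100 kb lay 12 partner bins with 66.6% of the counts, and beyond 500 kb lay 15. The highest counts were near, with 176 (ratio 3.17, 2.72 to 3.68) at chr4:66790001-66795000, 35 kb upstream, 127 (2.23, 1.86 to 2.66) at 20 kb upstream and 125 (2.09, 1.74 to 2.50) at 25 kb downstream, inside the gene. Among the far bins, at chr4:67445001-67450000, 620 kb downstream, 32 counts were observed against 2.71 expected, a ratio of 11.8 (8.07 to 16.6, FDR 9.32e-23). This was the highest ratio of the 104 interactions and higher than that of 98.8% of the 323 promoter interactions in the list at the same distance. Next came 6.83 (3.91 to 11.1) with 16 counts at 1000 kb, the largest distance listed, and 6.01 (3.89 to 8.88) with 25 counts at 570 kb. These were higher than 81.2% and 90.8% of promoter interactions at their distances.

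Around these far peaks the partner bins ran close together. An unbroken run of 5 bins at chr4:67380001-67405000, 555 to 575 kb downstream of the TSS, held 96 observed counts with ratios of 3.79 to 6.01. From there to chr4:67490000, 660 kb downstream, another 7 bins were partners, with ratios of 3.02 to 11.8. Both stretches are intergenic for protein-coding genes. The Tlr4 promoter was the sole contact of most of its partners: 26 of 38 partner bins (68.4%) had no other interaction in the list, against 22.9% of all promoter ends, and none had more interactions than the promoter bin. The richest partner was the bin at 620 kb, with 10 interactions. No other gene's promoter had any of the 38 bins as a partner. Few were in reach, since the list ends at 1000 kb. The 1 other protein-coding TSS within 1 Mb was 423 kb upstream of Tlr4, and the next downstream was at 2127 kb. The share of sole contacts was not compared with that of promoters in equally gene-poor regions. The bin next to the promoter, 5 kb into the gene, had 16 interactions of its own, and the bin 5 kb upstream had none.

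**Figure D2:**
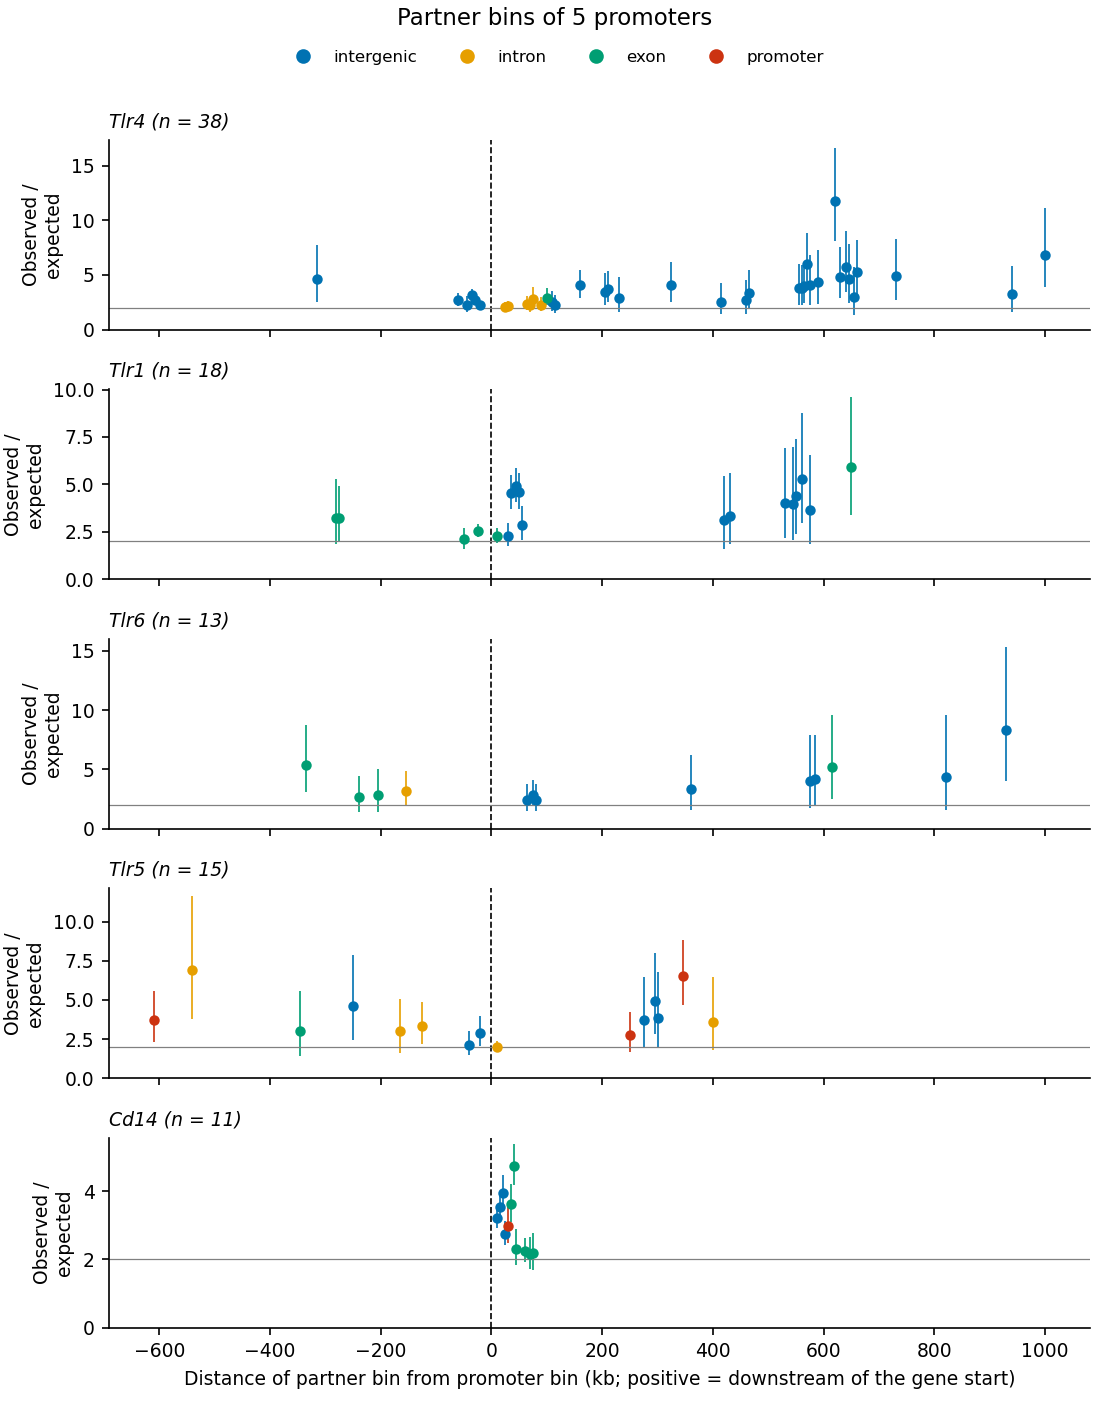
Ratio of observed to expected counts against the distance of the partner bin from the promoter bin, in kb along the direction of transcription, for the 5 genes with at least 10 interactions; each point is 1 interaction with its exact Poisson 95% interval, coloured by what the partner bin holds, and the horizontal line marks a ratio of 2. Tlr4 contacts run out to 1000 kb downstream with a peak of 11.8 at 620 kb, while all 11 Cd14 contacts lie within 75 kb downstream.

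Cd14, the LPS co-receptor gene, showed a different layout. It lies at chr18:36725067-36726798 on the minus strand in a gene-dense region, with 79 protein-coding genes within 1 Mb and the TSS of Tmco6 8.27 kb upstream, and its promoter bin is chr18:36725001-36730000. All 11 interactions were downstream and within 75 kb. They belonged to 1 cluster of 78 bin pairs, the rest of which join other bins, and none of the 11 was its summit. Yet the 11 summed to 2226 observed counts (2134 to 2320), the largest sum of the 10 genes, since counts per interaction ran from 66 to 421 with a median of 173. Expected counts were high as well at these short distances, 30.2 to 131, and the median ratio was 2.99.

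An unbroken run of 8 partner bins at chr18:36680001-36720000, 10 to 45 kb downstream of Cd14, held 1900 of these counts. The highest counts were 421 (ratio 3.22, 2.92 to 3.54) at 10 kb, 379 (3.54, 3.19 to 3.91) at 15 kb and 260 (3.95, 3.49 to 4.46) at 20 kb, all in intergenic bins. The ratio was highest at 40 kb, in chr18:36685001-36690000 on an exon of E230025N22Rik, with 249 counts and a ratio of 4.74 (4.17 to 5.37, FDR 7.72e-83), above 97.9% of promoter interactions at that distance. The bin with the TSS of E230025N22Rik, at 30 kb, had 115 counts and a ratio of 2.99 (2.47 to 3.59). The counting intervals of the bins at 40 kb and at 30 kb did not overlap, and the ratio peaked beyond this TSS and not at it. The partner bins most like those of Cd14 were those of Hars and Hars2, histidyl-tRNA synthetase genes that share a promoter bin, with 6 bins in common (54.5% of those of Cd14, 35.3% of theirs; Jaccard index 0.273), followed by Apbb3 and Slc35a4 with 5 (Jaccard index 0.25).

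Tlr1 and Tlr6 encode the alternative partners of TLR2 and lie next to each other on the minus strand of chromosome 5, with TSSs 26.5 kb apart. Tlr1 (chr5:64924679-64933563, promoter bin chr5:64930001-64935000) had 18 interactions in 8 clusters and 984 observed counts (923 to 1047), and Tlr6 (chr5:64952031-64960097, promoter bin chr5:64960001-64965000) had 13 in 9 clusters and 182 (157 to 210). Most of the counts of Tlr1 were near, 85.3% within 100 kb, against 37.4% of those of Tlr6. Both genes also had far contacts, 6 of Tlr1 and 5 of Tlr6 beyond 500 kb, and both had more contacts downstream (14 of 18 and 9 of 13).

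The Tlr1 promoter had its highest count with a bin inside Tlr6 and its highest near ratios in an intergenic stretch on the other side. The bin chr5:64955001-64960000, 25 kb upstream on an exon of Tlr6, had 212 counts (ratio 2.53, 2.21 to 2.90), and a bin at 10 kb inside Tlr1 had 136 (2.26, 1.90 to 2.68). These ratios were higher than those of 56.4% and 30.9% of promoter interactions at their distances. Downstream, 5 of the 6 bins of chr5:64875001-64905000 were partners, with counts of 42 to 126 and ratios of 2.30 to 4.90. Their peak at chr5:64885001-64890000, 45 kb from the Tlr1 promoter, had 126 counts and a ratio of 4.90 (4.08 to 5.84, FDR 1.16e-43), above 97.8% of promoter interactions at its distance. The highest ratios of Tlr1 lay far away and rested on few counts, 5.92 (3.38 to 9.61) with 16 counts on an exon of the RabGAP gene Tbc1d1 at 650 kb and 5.31 (2.97 to 8.77) with 15 counts at 560 kb.

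The Tlr6 promoter bin had lower counts, between 6 and 28. Its highest ratio was 8.32 (3.99 to 15.3) at 930 kb downstream with 10 counts, followed by 5.38 (3.08 to 8.74) with 16 counts at 335 kb upstream, on an exon of Rfc1, a gene for the large subunit of replication factor C, and 5.23 (2.51 to 9.62) with 10 counts at 615 kb in Tbc1d1. Its highest counts were 28 in chr5:64885001-64890000, the bin at the peak of Tlr1, and 20 in each of 3 bins at 65, 80 and 155 kb.

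Tlr1 and Tlr6 had 4 partner bins in common, 22.2% of those of Tlr1 and 30.8% of those of Tlr6, and each was the gene most like the other by the Jaccard index of partner bins (0.148). Next were Wdr19, an intraflagellar transport gene, for Tlr1 (0.121), and Fam114a1 and Rfc1 for Tlr6 (0.0909 each). The overlap was not particular to the receptor pair, since Wdr19 also had 4 bins in common with Tlr1. Klf3, which had 83 partner bins and so a low Jaccard index, had 6 in common with Tlr1 (33.3%) and 4 with Tlr6 (30.8%). The bins shared by Tlr1 and Tlr6 start at 64385001, 64880001, 64885001 and 64895001. Those at 64880001 and 64885001 also had interactions with promoter bins of Fam114a1 and Wdr19, among others. In the nearer 3 the ratio was higher at Tlr1: 4.90 (4.08 to 5.84) at Tlr1 and 2.85 (1.89 to 4.12) at Tlr6 in the bin at 64885001, 4.59 (3.72 to 5.61) and 2.45 (1.5 to 3.79) in that at 64880001, and 4.54 (3.71 to 5.49) and 2.45 (1.5 to 3.78) in that at 64895001. The counting intervals overlapped slightly in each. In the farthest bin, 545 and 575 kb away, the ratios were 3.98 (2.06 to 6.96) at Tlr1 and 4.03 (1.74 to 7.94) at Tlr6, and the same bin had 11.6 (8.32 to 15.7) with a promoter bin of Klf3, a Kruppel-like repressor gene. No interaction joined the promoter bins of Tlr1 and Tlr6 as defined here. The bin next to that of Tlr6, chr5:64955001-64960000, which holds the downstream RefSeq start of Tlr6, did have an interaction with the Tlr1 promoter bin, with 212 counts.

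The bin at 64885001, which had the highest count of Tlr6 and was also a partner of Tlr1, held 1 PU.1 match. Of the other shared bins, that at 64385001 also held 1 match, and those at 64880001 and 64895001 held none. Of the 100 partner bins of the 10 genes 30.0% held a match, against 28.0% of all 96263 partner bins of promoters. The 60 bases around the match in the bin at 64885001 lie at chr5:64887170-64887229 and are given on the plus strand of GRCm38.
shared bin of Tlr1 and Tlr6: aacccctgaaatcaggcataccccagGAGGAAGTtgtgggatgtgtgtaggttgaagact

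**Figure D3:**
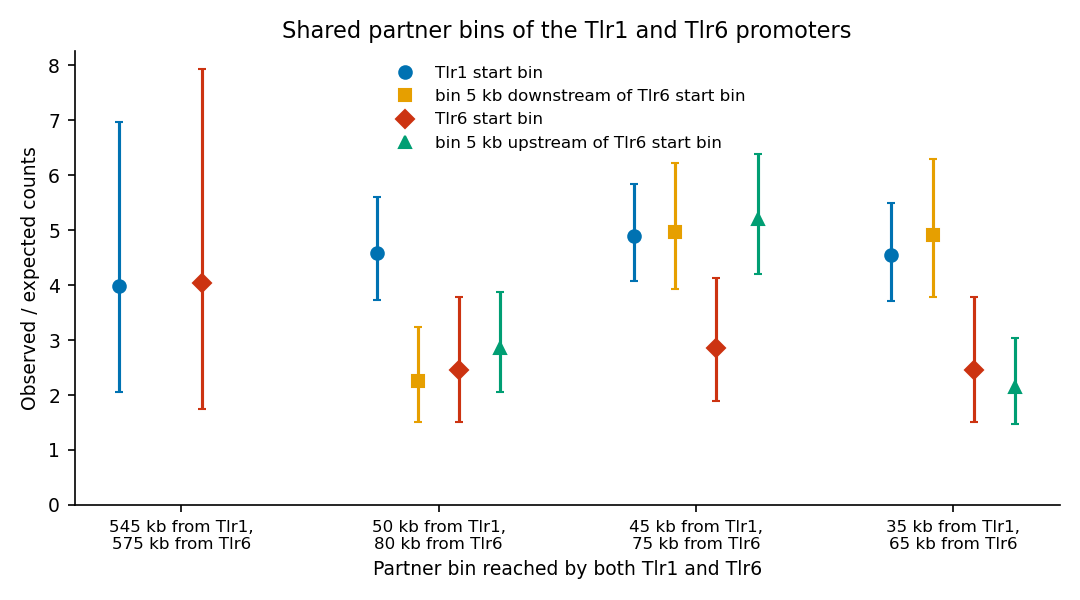
Ratio of observed to expected counts, with exact Poisson 95% intervals, in the 4 partner bins that Tlr1 and Tlr6 have in common, for the Tlr1 start bin (circles), the Tlr6 start bin (diamonds) and the bins 5 kb downstream (squares) and upstream (triangles) of the Tlr6 start bin. In the bin 45 kb from Tlr1 the Tlr1 bin (4.90) and both neighbours of the Tlr6 bin (4.97 and 5.21) lie above the Tlr6 start bin (2.85); bins without a listed interaction have no point.

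Both bins next to the Tlr6 promoter bin had more contacts than it. The annotated TSS at 64960047 lies 46 bases from the downstream edge of its bin. The neighbour downstream, chr5:64955001-64960000, had 28 interactions with 883 counts, and the neighbour upstream, chr5:64965001-64970000, on the side away from that edge, had 30 with 1442. The RefSeq downstream start printed above falls in the downstream neighbour, the bin that also had 212 counts with the Tlr1 promoter. In the bin at 64885001 the downstream neighbour had a ratio of 4.97 (3.92 to 6.23) and the upstream neighbour 5.21 (4.21 to 6.38), both close to that of Tlr1. The neighbours differed from each other in the bin at 64895001, with 4.92 (3.78 to 6.29) downstream and 2.15 (1.47 to 3.04) upstream, and both were below Tlr1 in that at 64880001, with 2.26 (1.51 to 3.24) and 2.86 (2.06 to 3.87). When start sites up to 2500 bp outside a bin also counted, Tlr6 had 41 interactions. Over all genes, the downstream bin was richer than the TSS bin for 43.8% of 1428 genes with a TSS less than 500 bases before that edge, and for 24.6% of 12895 others, a comparison made after the values of Tlr6 were seen. The part of the bin edge in the Tlr6 values was not tested.

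Tlr5, the flagellin receptor gene (chr1:182954788-182976044, plus strand), had TSSs in 2 bins and 15 interactions, 12 at the upstream bin chr1:182950001-182955000 and 3 at chr1:182970001-182975000. They fell in 11 clusters, summed to 424 counts (385 to 466) and were balanced, with 8 upstream and 7 downstream. Another gene had its TSS in 3 of the 15 partner bins, against 13.7% of all promoter ends. These were the bin of Aida and Brox at 345 kb with 42 counts and a ratio of 6.51 (4.69 to 8.80, FDR 8.96e-20), that of the ubiquitin ligase subunit gene Fbxo28 at 610 kb with 22 counts and 3.69 (2.32 to 5.59), and that of Disp1, a gene for release of Hedgehog ligands, with 20 counts and 2.75 (1.68 to 4.25), 250 kb from the downstream promoter bin. Aida and Brox start in the same bin and cannot be told apart. Partner bins with a TSS of another gene were 2 of 4 for Tlr9, 1 of 2 for Tlr12, 1 of 1 for Tlr3 and 1 of 11 for Cd14. Tlr4, Tlr1, Tlr6 and Tlr2 had none.

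The highest ratio of Tlr5 was 6.90 (3.77 to 11.6) with 14 counts, 540 kb upstream in an intron of Trp53bp2, a gene for a p53-binding protein, and the third was 4.91 (2.80 to 7.97) with 16 counts in an intergenic bin 295 kb from the downstream promoter bin. Its highest counts were 144 (2.0, 1.69 to 2.35) at 10 kb inside Tlr5, the 42 at Aida and Brox, and 37 (2.90, 2.04 to 3.99) at 20 kb upstream. The bin inside Tlr5, chr1:182960001-182965000, had 33 interactions and 775 counts of its own, more than the upstream promoter bin with 12 and 376, although no annotated TSS lies in it. All 4 bins of the Tlr5 body without a TSS had 42 interactions together, 6 of them with promoters of Aida, Brox, Capn2, Capn8 or Disp1. By the Jaccard index of partner bins the genes most like Tlr5 were Capn8 and Mia3 (0.0667 each), whose only partner bin was 1 shared with Tlr5. Disp1, Capn2, Aida and Brox each had 2 bins in common with Tlr5. Their index was lower because they had 22 to 41 partner bins. The Tlr5 TSS also lies near an edge, 212 bases from the downstream end of its bin, and Tlr5 had 24 interactions when start sites up to 2500 bp outside a bin also counted.

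**Figure D4:**
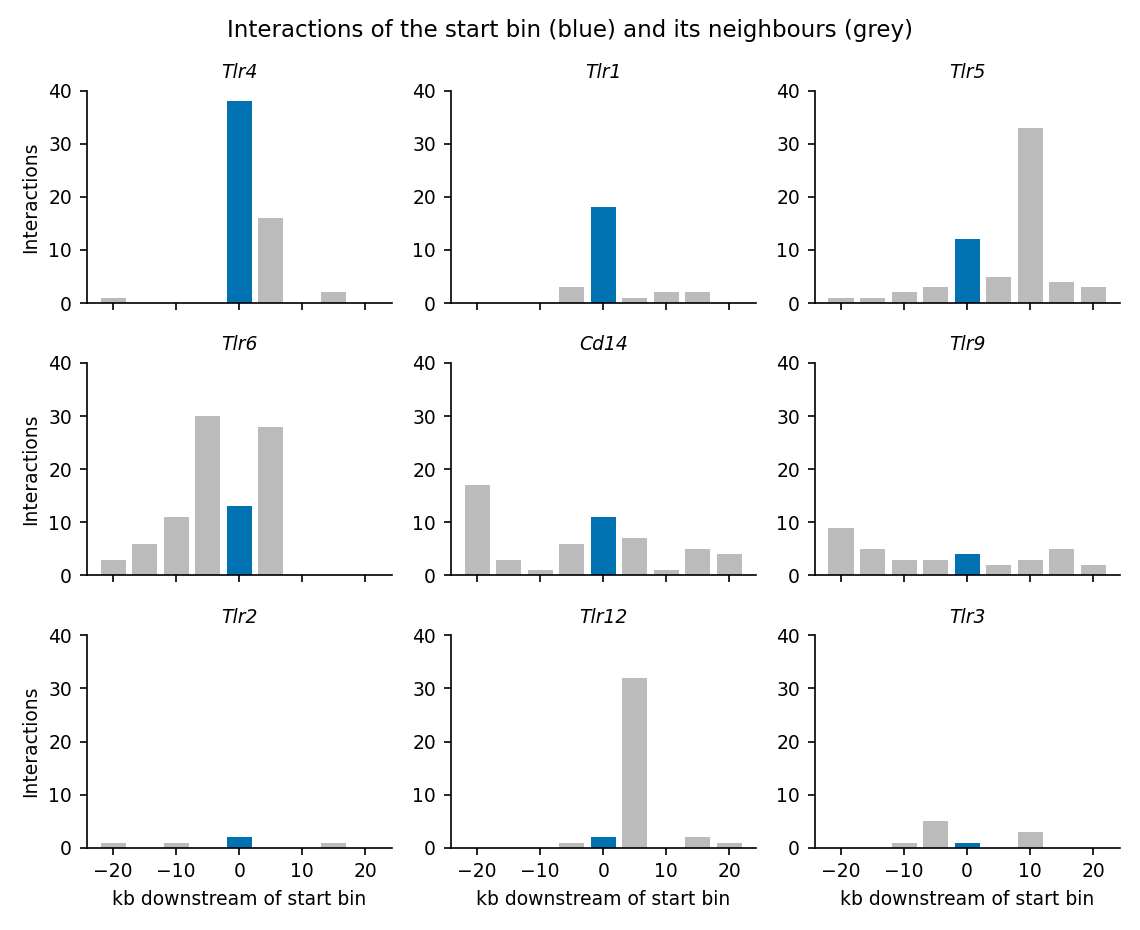
Number of interactions of the bin holding the TSS (blue) and of the 4 bins on either side (grey), in kb along the direction of transcription, for the 9 genes with at least 1 interaction; for Tlr5 the upstream of its promoter bins is at 0. At Tlr4, Tlr1 and Cd14 the start bin is higher than the bins next to it, whereas at Tlr6 both neighbours (30 and 28) exceed the start bin (13) and at Tlr5 the bin 10 kb into the gene has 33.

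Tlr2, the common partner of TLR1 and TLR6, had 2 interactions, more than 47.2% of genes had (chr3:83836272-83841767, minus strand, promoter bin chr3:83840001-83845000). Both were upstream and far. At 325 kb an exon of Trim2, a ubiquitin ligase gene, had 60 counts and a ratio of 5.51 (4.2 to 7.09, FDR 1.12e-23), and at 295 kb an exon of the meiotic recombination gene Mnd1 had 22 counts and a ratio of 2.55 (1.6 to 3.85). Both partner bins were richer than the promoter bin of Tlr2, with 28 and 17 interactions. The bins within 20 kb of the Tlr2 promoter had at most 1 interaction each, so its low number did not come with a rich neighbour as at Tlr6.

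Of the endosomal receptor genes, Tlr9 (chr9:106222598-106226883, plus strand) had 4 interactions, more than 58.2% of genes had, with 159 counts (135 to 186), at ratios of 2.0 to 2.34, none above the median ratio of promoter interactions at the same distance. They were 77 counts (2.34, 1.85 to 2.92) at 60 kb in the bin with the TSS of Poc1a, a centriole protein gene, 32 (2.17, 1.48 to 3.06) at 55 kb upstream, 28 (2.0, 1.33 to 2.90) at 55 kb downstream and 22 (2.09, 1.31 to 3.17) at 255 kb in the bin with the TSSs of Parp3 and Rrp9. Tlr3 (chr8:45395665-45411080, minus strand) had 1, with 18 counts against 7.06 expected, a ratio of 2.55 (1.51 to 4.03, FDR 1.57e-03), 565 kb upstream in the bin with the TSSs of 1700029J07Rik and Ufsp2. This ratio was higher than that of 6.55% of promoter interactions at its distance. The bin 5 kb upstream of the Tlr3 promoter bin had 5 interactions, and a TSS of Tlr3 lies 379 bases from the downstream edge.

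The Poc1a bin, which had the highest count and ratio of the partner bins of Tlr9, held 1 PU.1 match. The bin of Parp3 and Rrp9 also held 1, the bins at 55 kb on either side held none, and 28.0% of all partner bins of promoters held a match. The 60 bases around the match in the Poc1a bin lie at chr9:106282080-106282139 and are given on the minus strand of GRCm38.
Tlr9 partner bin: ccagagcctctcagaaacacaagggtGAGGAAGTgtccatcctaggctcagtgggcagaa

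Tlr12 and Tlr11, the profilin receptor genes of the mouse, had 2 interactions and none. Tlr12 (chr4:128615443-128618619, minus strand) had both of its contacts upstream, with 79 counts (ratio 3.33, 2.63 to 4.14) at 110 kb in the bin with a TSS of Phc2, a Polycomb gene, and 23 counts (2.15, 1.36 to 3.23) at 195 kb in an intergenic bin. The bin 5 kb downstream, with the TSS of the zinc finger gene Zscan20, had 32 interactions, so the low number of Tlr12 was not shared by its nearest neighbour. Tlr4 and Tlr12 are both on chromosome 4 and had no partner bin in common. Tlr11 (chr14:50357914-50363663, plus strand) had no interaction at either of its 2 promoter bins, and none of the bins within 20 kb of them had any. Its nearest genes are the olfactory receptor genes Olfr735, 9.04 kb upstream, and Olfr736, 23.2 kb downstream. The caller tests only bin pairs that touch a bin with the mark, and the H3K4me3 level at Tlr11 was not analysed here. The promoter bins of Tlr11 held 15 and 8 sites of MboI, the enzyme that cut the chromatin at GATC, against a median of 12 over 23780 promoter bins, and those of the other genes held 7 (Tlr3) to 18 (Tlr5).

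The genes also differed in how connected their partners were. At the genes with 1 to 4 interactions, the partner bin had more interactions in the list than the promoter bin in all cases, 2 of 2 for Tlr2, 2 of 2 for Tlr12, 1 of 1 for Tlr3 and 4 of 4 for Tlr9. A promoter bin with few interactions has more room to be exceeded, and the share over the genes with at least 10 interactions was 5 of 15 for Tlr5, 3 of 18 for Tlr1, 2 of 13 for Tlr6, 2 of 11 for Cd14 and 0 of 38 for Tlr4. All 10 genes together gave 21 of 104 (20.2%), against 12.5% of all promoter ends.

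Genes acting with or below the receptors were counted in the same way, from a list of 42 genes of which 39 were measured and 3 X-linked ones (Irak1, Tab3, Ikbkg) were not analysed here. Of the 39, 36 (against 63.2% of all genes) had at least 1 interaction and the median was 13, against 7.5 for the TLR genes and Cd14. Among co-receptors and chaperones 7 of 9 had contacts, with a median of 7, led by Cd180, which encodes the TLR4 homologue RP105, with 45 and by the chaperone gene Cnpy4 with 25, whose promoter bin also holds Taf6. Lbp, for the LPS-binding protein of serum, and the scavenger receptor gene Cd36 had none. Of the adaptors 5 of 6 had contacts (median 11), with 42 at Ticam2, the adaptor of TLR4 to TRIF, and 19 at Myd88, whose bin also holds Acaa1a, while Pik3ap1 had none.

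All 13 measured kinase and ubiquitin ligase genes had contacts (median 13), with 86 at Tab2, a subunit of the TAK1 kinase complex, and 40 at the MAP kinase kinase kinase gene Map3k8. The Tab2 number exceeded that of 99.5% of genes. All 6 inhibitor genes had contacts (median 8.5), led by the deubiquitinase genes Cyld with 19 and Tnfaip3 with 13. The highest ratio of Tnfaip3 was 9.42, with 299 counts at 175 kb. All 5 transcription factor genes had contacts (median 23), with 37 at Irf5 and 30 at Nfkb1. Tlr4, with 38, had more than any inhibitor or transcription factor gene of the list and fewer than Tab2, Cd180, Ticam2 and Map3k8. The nucleic acid receptor genes Tlr9 and Tlr3, with 4 and 1, were below the median of every role.

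**Figure D5:**
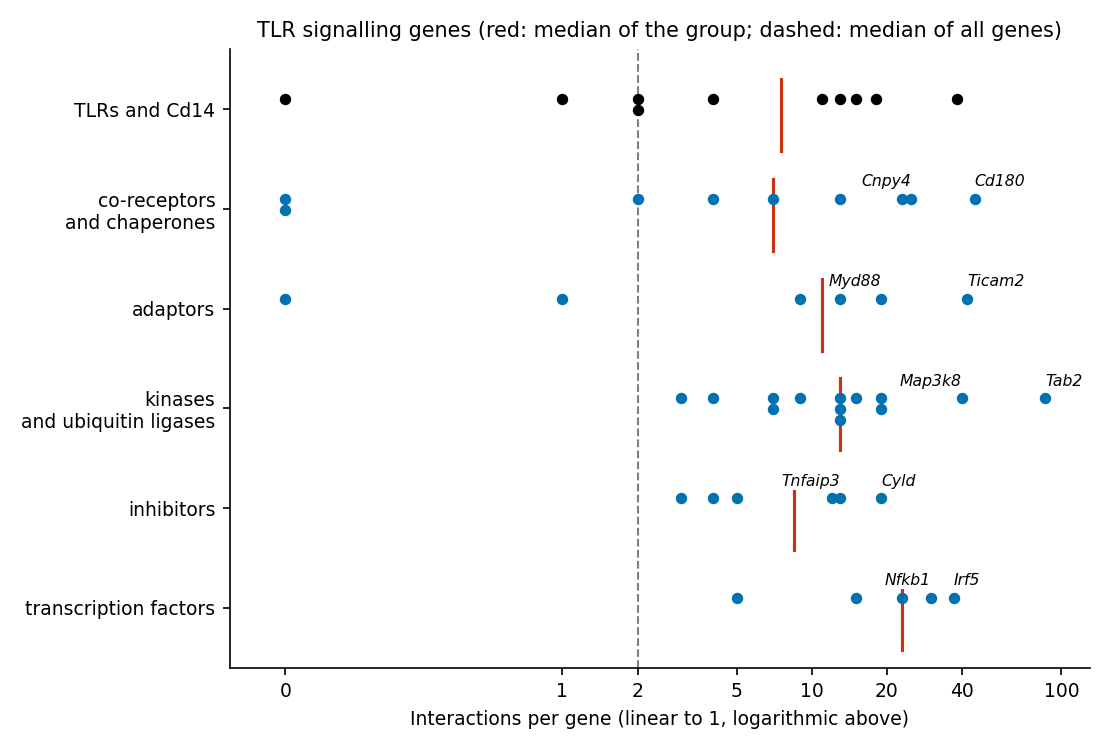
Interactions per gene for the TLR genes and Cd14 (black) and for 39 genes that act with or below them (blue), grouped by role, on an axis that is linear to 1 and logarithmic above; red bars mark the median of each group and the dashed line the median of all genes (2), and the 2 leading genes of each role are named. The group medians run from 7 for co-receptors and chaperones to 23 for transcription factors, with 7.5 for the TLR genes and Cd14, and Tab2 is farthest right with 86.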

How the data were processed

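H3K4me3 HiChIP reads of 2 IL-4-treated and 2 basal BMDM samples, grouped by their titles and described as biological replicates, were the source of the list. Bowtie2, bedtools and the mm10 build are named in the submitters' processing notes. The authors ran MAPS at 5000 bp on the merged reads with H3K4me3 ChIP-seq peaks as anchors, so only bin pairs touching a peak bin could be called. The deposited list gives an observed count and an expected count per bin pair, both used as deposited; the expected count comes from the model of the authors. The deposited FDR is the authors' adjusted p-value. Cluster labels, a count of bin pairs per cluster, and a −log10 p summed per cluster, which was not used, are also deposited. Their summed counts cover called bin pairs only and are not a sequencing depth.

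Computed here were ratios with exact Poisson and shares with Wilson 95% intervals (counting error only), gene assignment by TSS (GENCODE M21 basic, mm10, positions counted from 1), partner classes by protein-coding genes, and motif matches on both strands in RefSeq promoters and GRCm38 bins. The counting code was tested on simulated lists. Computation used scipy 1.17.1, pandas 2.3.3 and numpy 2.4.6 under Python 3.11.15, and matplotlib 3.10.9 drew the plots. A limma test of IL-4 against basal was planned and could not be made on a pooled list; with no replicate values there is no replicate error.

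The genes and lists were chosen with earlier results of these data known. Named by rule were the 10 genes, for each gene the leading 3 bin pairs by count and the leading 3 by ratio, genes with a TSS in a partner bin, the 2 genes with the highest Jaccard index for genes with at least 5 interactions, and the 2 leading genes of each role. Neighbouring bins, gene bodies and partner richness were described after the data were seen. Alternatives were an FDR under 1e-06, at least 10 counts, ratios of at least 4, 1 bin pair per cluster (the one with the lowest FDR), no clusters of 1 bin pair, a TSS within 2500 bp, the outermost TSS, and all gene biotypes for partner classes.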

Additional observations from a re-analysis of the deposited data

How the results depend on the processing

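The total of 104 interactions at the 10 genes was 44 at an FDR under 1e-06, 33 at ratios of at least 4, 28 with 1 bin pair kept per cluster and 168 with a TSS within 2500 bp of the bin, and it was 96 to 101 with at least 10 counts, without clusters of 1 bin pair or with the outermost TSS. The median per gene of 7.5, against 2 over all genes, was 1, 1, 0.5 and 12 under the first 4 of these, against 1, 0, 1 and 4 over all genes, so it equalled that of all genes at the lower FDR and was below it with 1 bin pair per cluster. The number of the 10 genes with at least 1 interaction was 9 (63.2% of all genes), 8 at the lower FDR (52.0%), 6 at ratios of at least 4 (42.3%), 5 with 1 bin pair per cluster (51.1%) and 9 under the other 4. The summed counts of 5705 were 1117 at ratios of at least 4 and 1370 with 1 bin pair kept per cluster. The stricter thresholds and the choice of 1 pair per cluster remove bin pairs by construction. Tlr4 had 17, 14 and 13 interactions at the lower FDR, at the higher ratio and with 1 bin pair per cluster, and had more than 91.0 to 97.8% of genes under all 7 alternatives. Cd14 kept its 11 interactions at the lower FDR, had 1 at ratios of at least 4 and had none with 1 bin pair per cluster, because the kept pair of its cluster of 78 bin pairs joins other bins. Tlr6 had 1 interaction at the lower FDR, and the wider definition of a promoter gave 41 for Tlr6, 24 for Tlr5, 18 for Cd14. With all gene biotypes the intergenic share was 55.8% in place of 61.5%. No paired analysis was possible because the list is pooled over samples and carries no value per replicate, and for the same reason leaving out a replicate and the test of IL-4 against basal were not run. The depth of each sample is unknown, and those far contacts that rest on 6 to 20 counts have wide intervals.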
